A study of Mus musculus with 4 samples.

Results

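The ETS factors described here are 10 mouse genes whose proteins act at the nuclear end of the Ras-ERK pathway: *Etv1*, *Etv4* and *Etv5* (the PEA3 group), *Ets1* and *Ets2*, the ternary complex factors *Elk1*, *Elk3* and *Elk4*, and in addition *Etv6* and *Gabpa*. They were chosen by gene name, with earlier results of these data known. Every non-control probe carrying one of these names was taken, which gave 19 of the 55681 probes on the array. All 10 genes had a probe well above background on all 4 arrays, and they were set among the 19157 genes with a detected probe, meaning a mark of well above background on both siControl arrays, on both siFxr1 arrays or on all 4. RNA came from C2C12 cells, a subclone of a mouse myoblast line that is grown as myoblasts and can fuse to myotubes, transfected transiently, 48 hours before analysis, either with siFxr1, an siRNA that targets *Fxr1*, or with siControl, a random siRNA matched to it in GC content. *Fxr1* encodes an RNA-binding protein of the fragile X family. Each condition was measured in 2 experiments, called biological replicates by the study, on 1 one-colour Agilent array each, and the siFxr1 and siControl arrays of an experiment lay on the same slide. The genotype of the line was the same throughout, so the conditions differed by the siRNA only, and the line is a single clone.

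ETS proteins share a winged helix-turn-helix DNA-binding domain that reads a GGAA core. ERK phosphorylates several of them directly. The ternary complex factors sit beside serum response factor on CArG boxes of immediate early genes, and the PEA3 group genes are themselves switched on by receptor tyrosine kinase signals in many tissues, where the repressor capicua holds them down until ERK inactivates it. In muscle, GABPA is known as an activator of genes expressed at the neuromuscular synapse and of mitochondrial genes, ETV5 as a factor of the same synaptic programme, and SRF with its cofactors as a regulator of contractile genes.

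The siRNA is shown because every comparison rests on it. It targets exon 14 of *Fxr1*, which all *Fxr1* transcripts hold, and the 1 strand listed by the study is given here, read 5′ to 3′ with no letters marked.

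siFxr1: gcaauccauacagcuuacuugaua

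The probes that stand for the PEA3 group are shown because they gave the 3 largest mean differences among the 10 genes, and the first 30 of their 60 bases are given 5′ to 3′ on the strand of the transcript, with no letters marked. The array annotation places the *Etv1* probe at chr12:39593054-39593113 on the plus strand of mm9, the *Etv4* probe at chr11:101631057-101631116 on the minus strand and the *Etv5* probe at chr16:22381387-22381446 on the minus strand.

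Etv1 (A_66_P135185): tcacaggccagtagcattttatgtatctgg
Etv4 (A_55_P2078780): taattccacctttgcctcttatgccagacc
Etv5 (A_55_P2037454): tgcaccctgccgagctgcgtatattctgta

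None of these 3 probes shares a stretch of 20 bases with a probe of another gene name on the array. The 2 *Elk1* probes are shown because they differ in this respect. The brighter, at chrX:20510521-20510580 on the minus strand of mm9, reads like the B1 family of short interspersed repeats of the mouse genome, and its annotation lists transcripts of 4 genes, *Dusp22*, *Elk1*, *Glrx2* and *Mfsd4a*. It shares a stretch of 20 bases with 11 probes of other gene names and with 45 of 32851 promoters. The dimmer *Elk1* probe, at chrX:20512461-20512520 on the minus strand, shares no such stretch with either and its annotation names *Elk1* alone.

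Elk1 (A_55_P1954986): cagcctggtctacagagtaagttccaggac
Elk1 (A_66_P103818): gttagccatctcaaggagaaacatagttaa

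Among the other probes of these genes, that of *Etv6* shares a 20-base stretch with 4 probes of other gene names and the brighter *Ets1* probe with 1, a probe of *Etv2*. A signal on the brighter *Elk1* probe can therefore not be assigned to *Elk1*.

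The targeted gene went with the labels on all 4 arrays. The 2 probes of *Fxr1* had quantile-normalized log2 signals of 13.84 and 13.20 for siControl against 10.15 and 9.36 for siFxr1 in experiment 1, and of 13.71 and 13.34 against 10.77 and 9.96 in experiment 2. The brighter was lower in siFxr1 by a log2 difference of -3.31 (SE 0.29), although no probe on the array reached the threshold in the limma fit, where the Benjamini-Hochberg adjusted p for *Fxr1* was 0.950. Between 45.4% and 52.9% of probes were well above background on an array, RNA integrity numbers were 8 for siFxr1 in experiment 1 and 9 for the other arrays, and arrays correlated more closely within an experiment (r of 0.981 and 0.976) than within a condition (0.961 and 0.965). Of the myoblast markers, 6 of 7 were above background (*Myod1*, *Des*, *Cdh15*, *Pax7*, *Ncam1* and *Vcam1*, but not *Myf5*), and their summed linear signal ran from 68552 to 101204.5 in siControl and from 72064 to 100125 in siFxr1. These sums hide opposite moves: 3 of the 6 were higher in siFxr1 in both experiments and 3 lower, beside 34.1% and 29.9% of all genes. *Vcam1* differed by 0.03 and 1.37 and *Myod1* by -0.17 and -0.73 on the log2 scale. Of the myotube markers 9 of 10 were above background, without *Mef2c*, and all 9 were higher in experiment 1 than in experiment 2 within each condition, with sums of 315683 and 80958 in siControl and of 272899 and 60010 in siFxr1 of experiments 1 and 2. Between conditions 3 of the 9 were higher in siFxr1 in both experiments and 5 lower, beside the same shares of all genes. *Myh4* differed by 3.12 and 1.30 and *Actc1* by -0.51 and -1.33. Of the fibroblast markers 3 of 7 were above background, *Pdgfra*, *Dcn* and *Cd34*, with sums between 8845 and 10988 in siControl and between 11463 and 29838 in siFxr1. *Dcn* alone was higher in siFxr1 in both experiments (log2 differences of 0.60 and 1.94), *Pdgfra* was lower in both (-0.33 and -0.32) and *Cd34* took both signs, while *Thy1*, *Tcf21*, *Dpt* and *Lum* were not well above background. The part of the myotube and fibroblast transcripts in the values below was not tested. RNA was taken from whole cultures, in which fewer cells of a kind and less RNA per cell cannot be told apart.

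The PEA3 group had the 3 largest mean differences between siFxr1 and siControl of the 10 factors and the 3 largest in experiment 2, but not in experiment 1, where *Elk4* had the largest (0.68 on the log2 scale). The order also changed without siFxr1 of experiment 2, where *Etv6* (0.58) and *Elk4* (0.49) lay above *Etv4* (0.46), and without siControl of experiment 2, where *Ets2* (0.76) and *Elk4* (0.60) lay above *Etv5* (0.34). It changed as well without siFxr1 of experiment 1, where *Ets2* (0.98) lay above *Etv5* (0.96). *Etv1*, *Etv4* and *Etv5* all had higher signal in siFxr1 in both experiments, each by at least 2-fold in experiment 2 and by less than 1.5-fold in experiment 1. *Etv1*, a transcription factor also known as ER81, read 10.92 for siControl and 11.41 for siFxr1 in experiment 1, and 10.58 and 12.12 in experiment 2 (log2 signal, siControl always first). Both siFxr1 arrays lay above both siControl arrays, and the siControl arrays differed by less than the siFxr1 arrays. The mean log2 difference was 1.02 (SE 0.34, n = 2 per condition), a fold of 2.03, with a 95% interval in the limma fit of -0.02 to 2.06. *Etv4*, the founding member known as PEA3, read 11.57 and 12.08 in experiment 1 and 11.67 and 13.09 in experiment 2, again with no overlap between conditions. Its log2 difference was 0.96 (SE 0.42), with an interval of -0.32 to 2.25. *Etv5*, also known as ERM, read 10.85 and 11.07 in experiment 1 and 9.86 and 11.32 in experiment 2. Here the lower siFxr1 array stood only 0.22 above the higher siControl array, that of the same experiment, and the siControl arrays themselves lay far apart. Its log2 difference was 0.84 (SE 0.43), with an interval of -0.46 to 2.14.

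**Figure D1:**
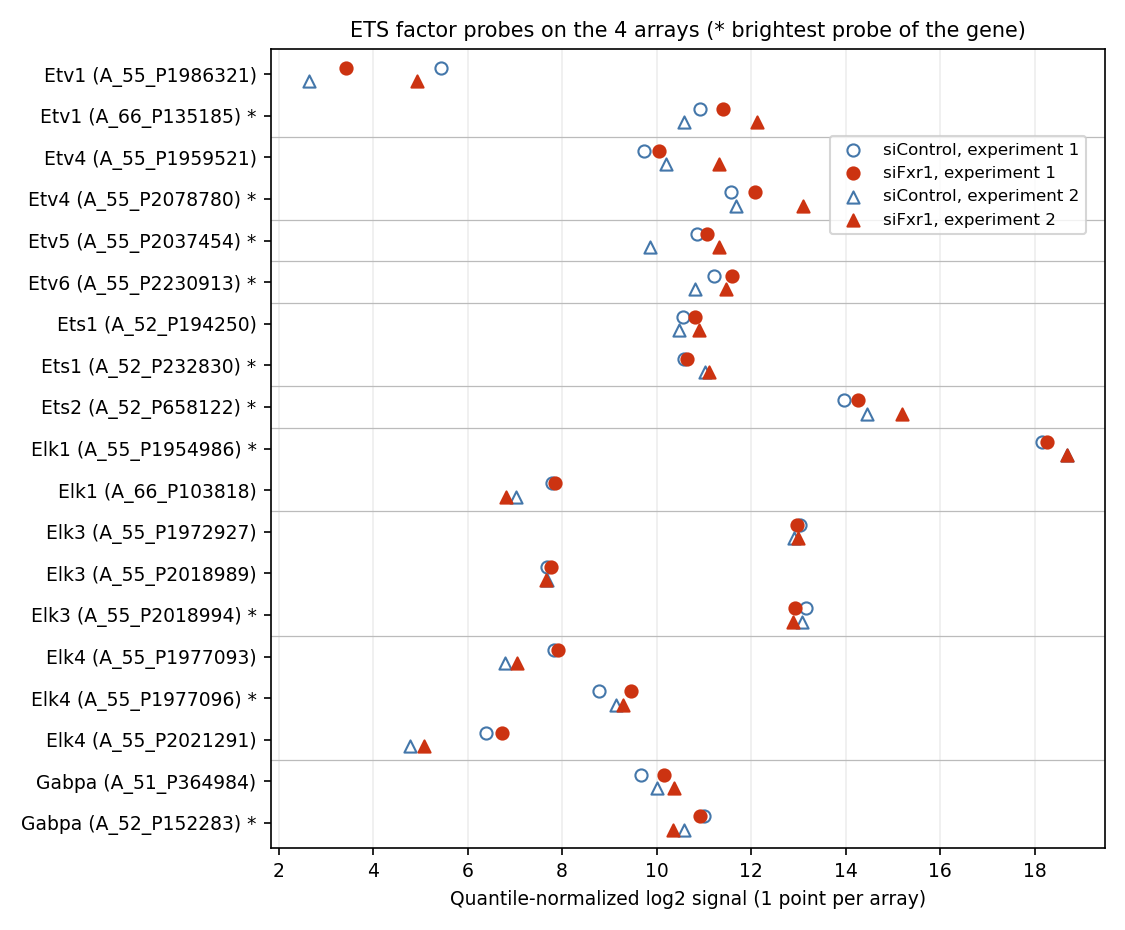
Quantile-normalized log2 signal of the 19 probes of the 10 ETS factors, 1 point per array (open blue, siControl; filled red, siFxr1; circles, experiment 1; triangles, experiment 2), with the brightest probe of each gene starred. For *Etv1*, *Etv4* and *Etv5* both red points lie to the right of both blue points on the starred probe, and the second *Etv1* probe, near background, scatters between 2.64 and 5.44.

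Split by experiment, the folds of the brightest probes were 1.41 and 2.92 for *Etv1*, 1.43 and 2.67 for *Etv4*, and 1.16 and 2.75 for *Etv5*, in experiments 1 and 2. Of all genes, 6.74% were at least 2-fold higher in siFxr1 in experiment 2, and 3 of the 10 factors were, the PEA3 group. In experiment 1 the same limit was passed by 4.19% of all genes and by 0 of the 10 factors. Each experiment holds 1 array per condition, so that the difference between the 2 experiments could not be tested. The second *Etv4* probe was also higher in siFxr1 in both experiments, reading 9.73 and 10.06 in experiment 1 and 10.19 and 11.32 in experiment 2, with a log2 difference of 0.73, though siFxr1 of experiment 1 lay below siControl of experiment 2. The second *Etv1* probe was well above background on 1 array of each condition, and read 5.44 and 3.43 in experiment 1 and 2.64 and 4.93 in experiment 2. Its differences in the 2 experiments point opposite ways, and no direction was taken from it.

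No probe of the 10 factors was called changed. At a Benjamini-Hochberg adjusted p under 0.05 over all probes, limma called 0 of the 19 probes, and 0% of all probes, and the lowest adjusted p in limma among the 19 was 0.975. At a B value (log odds of change) above 0, the rule of the study, it again called 0 of 19 and 0% of all. The study itself, which took means of ratios, reported both up- and down-regulated transcripts by this rule, so the condition-only fit here did not reproduce its calls. That rule called 354 probes over the array in the fit with the replicate block after a filter on dim probes, and 1107 where the 4 ratios of siFxr1 to siControl arrays were taken as observations, with 0 of the 19 among them in either fit. At an unadjusted limma p under 0.05 it marked 0 of the 19 probes and 4.96% of all probes, with an unadjusted limma p of 0.0524 for *Etv1* (the same fit across all probes). With the experiment as a replicate block, which pairs the arrays of a slide, the adjusted threshold was passed by 0 of 19 probes and 0% of all, and the unadjusted by 0 of 19 and 8.85% of all, with a lowest adjusted p in limma of 0.568 among the 19. Intervals as wide as those above leave both no difference and a several-fold one within reach, and an exact permutation test of 2 arrays against 2 cannot give a p below 0.333.

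Counted by direction, 8 of the 10 genes were higher in siFxr1 in both experiments by their brightest probes, beside 34.1% of all genes, and 2 of 10, *Elk3* and *Gabpa*, were lower in both, beside 29.9% of all genes. The 8 included *Elk1*, whose brightest probe has a repeat-like sequence, and 7 were left when its other probe stood for it. For other ways of processing, the share of all genes was not counted. When the background was corrected by normexp or not at all, or the authors' own normalized table was used, 5 of the 10 were higher in both experiments: *Etv1*, *Etv4*, *Etv5*, *Etv6* and *Elk4*. In the values as reported, these same 5 were the genes whose siFxr1 arrays both lay above both siControl arrays, beside 16.5% of all genes, and *Elk3* was the 1 gene of 10 with both siFxr1 arrays below, beside 14.2%. None of the 10 was at least 1.5-fold higher in both experiments, as 5.59% of all genes were, and none at least 1.5-fold lower in both, as 5.2% were. The median log2 difference over the 10 genes was 0.46, with medians of 0.25 in experiment 1 and 0.39 in experiment 2. Over all genes it was 0.03, 0.05 and -0.00.

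**Figure D2:**
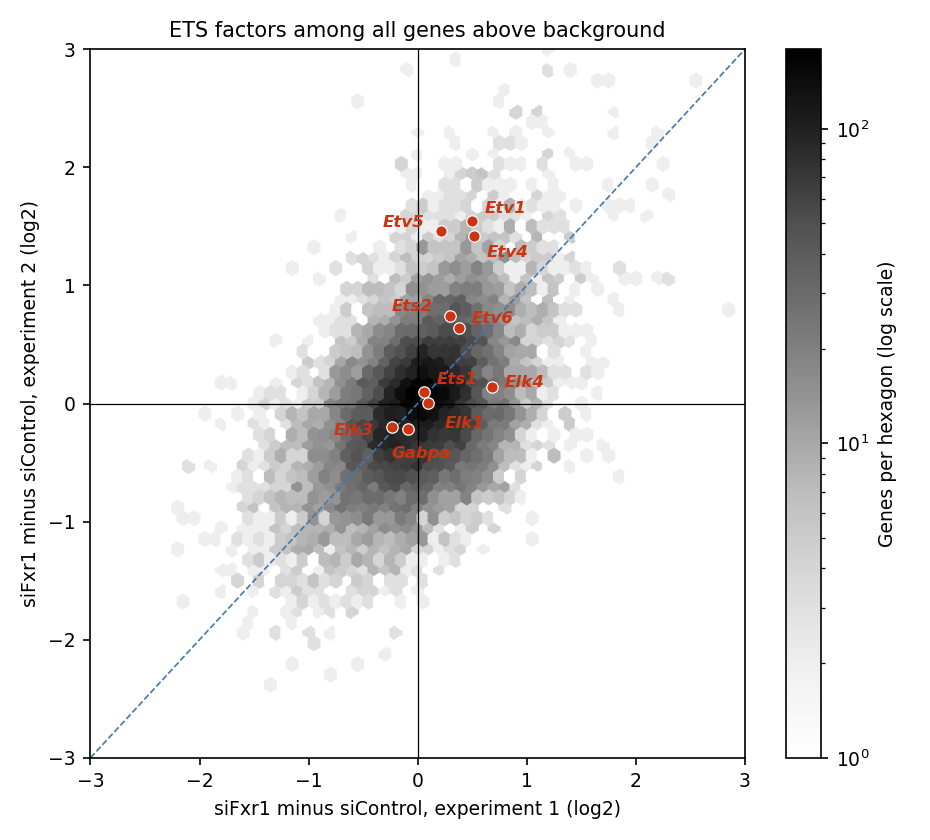
Log2 difference of siFxr1 from siControl in experiment 1 (horizontal) and experiment 2 (vertical), with all genes above background as grey hexagons shaded by their number on a log scale and the 10 ETS factors, by brightest probe, in red; the dashed line marks equal differences, and genes beyond 3 on either axis are not drawn. *Etv1*, *Etv4* and *Etv5* lie well above the line with differences of 1.41 to 1.54 in experiment 2, while *Elk4* lies below it.

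*Etv6*, *Ets2* and *Elk4* had higher mean signal in siFxr1 by less than the PEA3 group. *Etv6*, a repressor of the family also known as TEL, read 11.22 and 11.60 in experiment 1 and 10.82 and 11.46 in experiment 2, and its conditions did not overlap. Its log2 difference was 0.51 (SE 0.22), 0.38 in experiment 1 and 0.64 in experiment 2. The value in experiment 1 moved with the source of the values, and with normexp, with no background correction and in the authors' table it lay between 0.63 and 0.65, so that *Etv6* then was at least 1.5-fold higher in both experiments.

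*Ets2*, an activator phosphorylated by ERK on a conserved threonine, read 13.97 and 14.26 in experiment 1 and 14.44 and 15.19 in experiment 2. The conditions overlapped, since siFxr1 of experiment 1 lay below siControl of experiment 2, and the log2 difference was 0.52 (SE 0.43). The difference in experiment 1 was 0.29, and between -0.10 and -0.05 under the other background corrections and in the authors' table. *Ets1*, its closest relative, had a pair of probes of similar brightness that gave different sizes. The probe that stood for the gene read 10.57 and 10.63 in experiment 1 and 11.02 and 11.11 in experiment 2, a log2 difference of 0.08 (SE 0.30), and its sign turned with normexp, with no background correction and in the authors' table. The other probe read 10.56 and 10.80, then 10.47 and 10.90, with both siFxr1 arrays above both siControl arrays and a log2 difference of 0.33 (SE 0.15).

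The ternary complex factors did not all differ in the same direction. *Elk4*, also known as SAP-1, read 8.77 and 9.45 in experiment 1 and 9.14 and 9.28 in experiment 2 by its brightest probe, so that here experiment 1 held the larger difference, 0.68 against 0.14. Its mean log2 difference was 0.41 (SE 0.22), and the conditions did not overlap. The other 2 *Elk4* probes gave 0.17 and 0.31, and 1 of them was well above background on 3 of 4 arrays only. *Elk3*, also known as Net and a repressor until phosphorylated by ERK, read 13.17 and 12.94 in experiment 1 and 13.07 and 12.88 in experiment 2, a log2 difference of -0.21 (SE 0.15) with both siFxr1 arrays below both siControl arrays. Its second bright probe read 13.04 and 12.98, then 12.91 and 12.98, and its difference was 0.00, while the third and dimmest gave 0.03, so the lower signal of *Elk3* rested on 1 of 3 probes. For *Elk1*, the archetype of the group, the repeat-like probe read 18.15 and 18.25 in experiment 1 and 18.67 and 18.68 in experiment 2, a signal above 99.9% of all probes, with a log2 difference of 0.05 (SE 0.30). The probe whose annotation names *Elk1* alone read 7.78 and 7.85 in experiment 1 and 7.03 and 6.82 in experiment 2, a log2 difference of -0.07 (SE 0.52) with an interval of -1.66 to 1.52.

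*Gabpa*, the DNA-binding subunit of the GA-binding protein, had 2 probes that pointed opposite ways. The brighter read 10.99 and 10.91 in experiment 1 and 10.57 and 10.35 in experiment 2, a log2 difference of -0.15 (SE 0.31) whose conditions overlapped. The dimmer read 9.67 and 10.15, then 10.01 and 10.37, a log2 difference of 0.42 (SE 0.21), with both siFxr1 arrays above both siControl arrays. No direction for *Gabpa* could be taken from the 2 together.

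**Figure D3:**
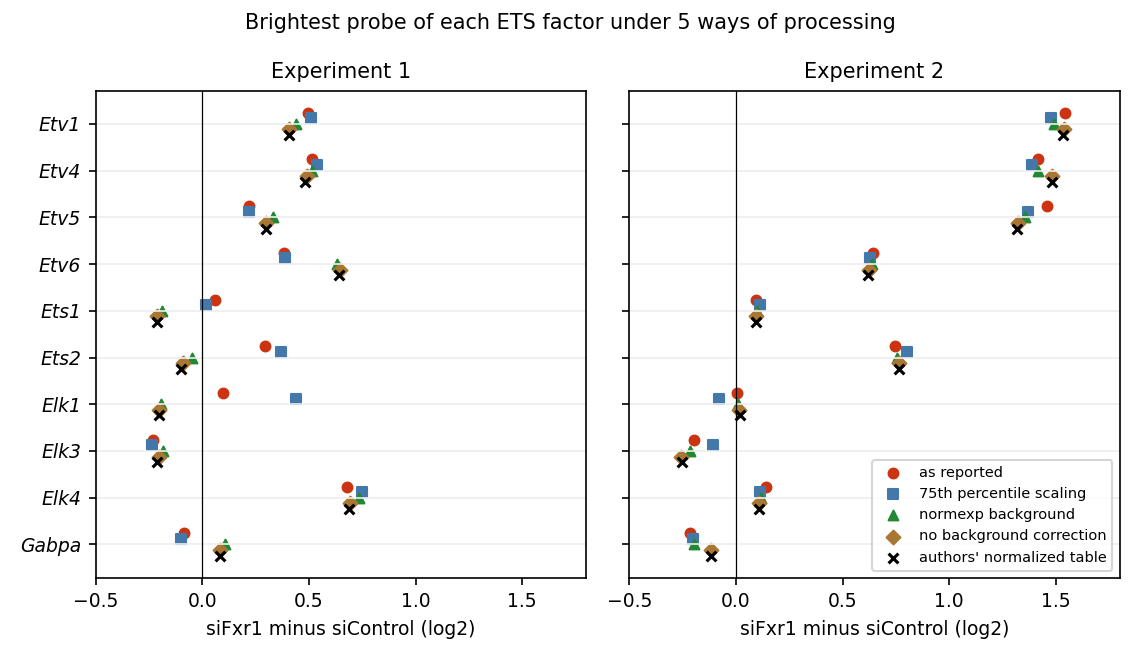
Log2 difference of siFxr1 from siControl for the brightest probe of each ETS factor in experiment 1 (left) and experiment 2 (right), as reported (red circles) and under 4 other ways of obtaining the values. In experiment 2 the 5 ways lie close together, and in experiment 1 the differences of *Ets1*, *Ets2*, *Elk1* and *Gabpa* take both signs.

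Some probes of the factors had different signal in the 2 experiments, but not more often than probes of the whole array. In the fit with the replicate block, 3 of the 19 probes passed an unadjusted limma p under 0.05 for experiment 2 against experiment 1, beside 20.1% of all probes, and 0 passed the adjusted threshold, beside 0% of all. These 3 were the *Elk1* probe named for *Elk1* alone and 2 probes of *Elk4*, each dimmer than the brightest probe of its gene. They were lower in experiment 2, by 0.89, 0.96 and 1.64 on the log2 scale. The last was well above background on 3 of 4 arrays only. The brightest probes went the other way, higher in experiment 2 by 0.10 for *Elk4* and by 0.47 for the repeat-like probe of *Elk1*. No direction between the experiments was therefore taken for either gene. The myotube markers were lower in experiment 2, as given above, and their part in the differences of these probes was not tested.

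The pattern of *Etv1*, the factor with the largest mean difference, was set against those of 17834 genes over the 4 arrays by the root mean square distance between signals centred on their means. The 3 closest were *Gdpd5* at 0.0358, *St3gal3* at 0.0631 and *Dock8* at 0.0653 log2 units, and 10 genes lay within 0.1. With 4 arrays such distances describe these arrays only.

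Most of the other ETS family genes were not detected above background in these cultures. Of 17 further family members on the array, 13 were not well above background, among them the haematopoietic and endothelial factors *Sfpi1* (PU.1), *Fli1* and *Erg* and the epithelial factors *Elf3*, *Elf5*, *Ehf* and *Spdef*. The 4 above background were *Elf1*, *Elf2*, *Erf* and *Etv3*, with a median log2 difference of 0.10 against 0.03 over all genes. *Elf2* was the 1 gene of the 4 with higher signal in siFxr1 in both experiments, by 0.14 and 0.63, beside 34.1% of all genes. *Etv3*, a repressor, was the 1 gene with lower signal in both, by log2 differences of -0.05 and -0.22, beside 29.9%. *Erf*, a repressor exported from the nucleus upon phosphorylation by ERK and picked after its values were seen, read 13.60 and 13.95 in experiment 1 and 13.00 and 12.90 in experiment 2, with opposite signs.

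Partners and cofactors of the ETS factors were all measured, 18 of 18, and had a median log2 difference of 0.07, with 6 higher and 5 lower in siFxr1 in both experiments, beside 34.1% and 29.9% of all genes. *Runx1*, a factor that binds DNA together with ETS1, was the 1 gene of 18 at least 1.5-fold higher in both, beside 5.59% of all genes. It read 11.68 and 12.43 in experiment 1 and 11.43 and 12.43 in experiment 2 (log2 difference 0.88, SE 0.18). *Srf*, the partner of the ternary complex factors, had a log2 difference of 0.37 (SE 0.68) and *Tle1*, a corepressor, one of 0.32 (SE 0.15). *Atxn1l*, which stabilizes capicua, was lower in siFxr1 by log2 differences of -0.52 and -0.63 in experiments 1 and 2, with a mean of -0.58 (SE 0.26). *Cic* itself, the repressor of the PEA3 group and picked here after its values were seen, read 14.81 and 14.58, then 15.38 and 15.16, a log2 difference of -0.22 (SE 0.35) whose conditions overlapped. *Atxn1*, another gene of this list picked after its values were seen, was higher in siFxr1 in both experiments, by 0.09 and 0.25. None of the 18 passed the adjusted limma p. At the unadjusted limma p under 0.05, 1 passed, beside 4.96% of all probes, and 1 with the replicate block, beside 8.85%. Here and in the lists below, such counts are of genes by their brightest probe. The shares beside them are over all probes, dim ones included, so the counts and shares are not matched.

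In the Ras-ERK cascade, from the small GTPases to the kinases of ERK's own substrates, 26 of 27 genes were measured and the median log2 difference was 0.03, as over all genes, with 10 higher and 7 lower in both experiments, beside 34.1% and 29.9% of all genes. *Rps6ka1* and *Rps6ka2*, which encode the ERK-activated kinases RSK1 and RSK3, had log2 differences of 1.48 (SE 0.59) and 1.16 (SE 0.47). *Rps6ka2* was the 1 gene of the 26 at least 1.5-fold higher in both experiments, beside 5.59% of all genes. *Nras* and *Rasa1*, a GTPase and a GTPase-activating protein of Ras, had log2 differences of 0.78 (SE 0.32) and 0.77 (SE 0.52). None of the 26 passed the adjusted limma p. At an unadjusted limma p under 0.05, 0 passed, beside 4.96% of all probes, and 3 did with the replicate block, beside 8.85%: *Rps6ka2*, *Rasa1* and *Mknk2*. *Mknk2*, named after its values were seen, was lower in siFxr1 in both experiments, by log2 differences of -0.72 and -0.57.

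Transcripts used as readouts of ERK activity had a median difference close to that of the 10 factors. This list, like the others here, was chosen with earlier results of these data known, so its counts are description only. It holds *Dusp6*, which the study reported as upregulated on these arrays and by quantitative RT-PCR. Of 24 on the array 22 were above background, the median log2 difference was 0.50, 15 were higher and 2 lower in both experiments, beside 34.1% and 29.9% of all genes, and 6 were at least 1.5-fold higher in both, beside 5.59%. Both siFxr1 arrays lay above both siControl arrays for 11 of them, beside 16.5% of all genes, and below for 1, beside 14.2%. *Dusp6*, a phosphatase that inactivates ERK, read 13.10 and 14.91 in experiment 1 and 13.06 and 15.50 in experiment 2, with a log2 difference of 2.13 (SE 0.27). *Spry1*, a feedback inhibitor of receptor tyrosine kinase signals, read 9.44 and 10.81, then 7.45 and 10.30, with a difference of 2.11 (SE 0.82). *Egr2*, an immediate early factor, read 10.11 and 12.43, then 10.73 and 11.91, with a difference of 1.75 (SE 0.35), and *Phlda1* had one of 0.86 (SE 0.26). *Spry4*, picked after its values were seen and for which neither siControl array gave a signal well above background, was at least 3.37-fold higher with siFxr1, taking for each siControl array the higher of its own signal and the lowest signal well above background. *Egr2* and *Phlda1* had their larger difference in experiment 1 (*Phlda1* 1.00 against 0.73), and *Dusp6* and *Spry1* in experiment 2 as the PEA3 group did. None of the 22 passed the adjusted limma p, and 5 passed the unadjusted p under 0.05, beside 4.96% of all probes, and 8 with the replicate block, beside 8.85%.

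Among 18 genes that textbooks give as targets of ETS factors, 15 were above background, with a median log2 difference of 0.16, 7 higher and 0 lower in both experiments, beside 34.1% and 29.9% of all genes, and 4 at least 1.5-fold higher in both, beside 5.59%. *Plau*, encoding urokinase, had a log2 difference of 1.34 (SE 1.41), 1.13 in experiment 1 and 1.54 in experiment 2. *Spp1*, encoding osteopontin, had one of 1.19 (SE 0.69), 1.18 in experiment 1 and 1.20 in experiment 2. The conditions overlapped for both, as signal shifted from experiment 1 to experiment 2, by -2.52 for *Plau* and 1.22 for *Spp1*. With the replicate block, which takes out this shift, the SE was 0.22 for *Plau* and 0.19 for *Spp1*. *Timp1*, an inhibitor of metalloproteinases, read 15.69 and 16.40 in experiment 1 and 15.58 and 16.59 in experiment 2 (log2 difference 0.86, SE 0.17), and *Ptgs2* had a difference of 0.55, 0.06 in experiment 1 and 1.04 in experiment 2. The 4 at least 1.5-fold higher in both were *Plau*, *Spp1*, *Timp1* and *Mmp9*, the last picked after its values were seen. *Mmp9* read 5.40 and 7.81 in experiment 1 and 4.24 and 9.92 in experiment 2. It was well above background on 3 of 4 arrays only. None of the 15 passed the adjusted limma p, and 2 passed the unadjusted p under 0.05, beside 4.96% of all probes, and 4 with the replicate block, beside 8.85%.

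**Figure D4:**
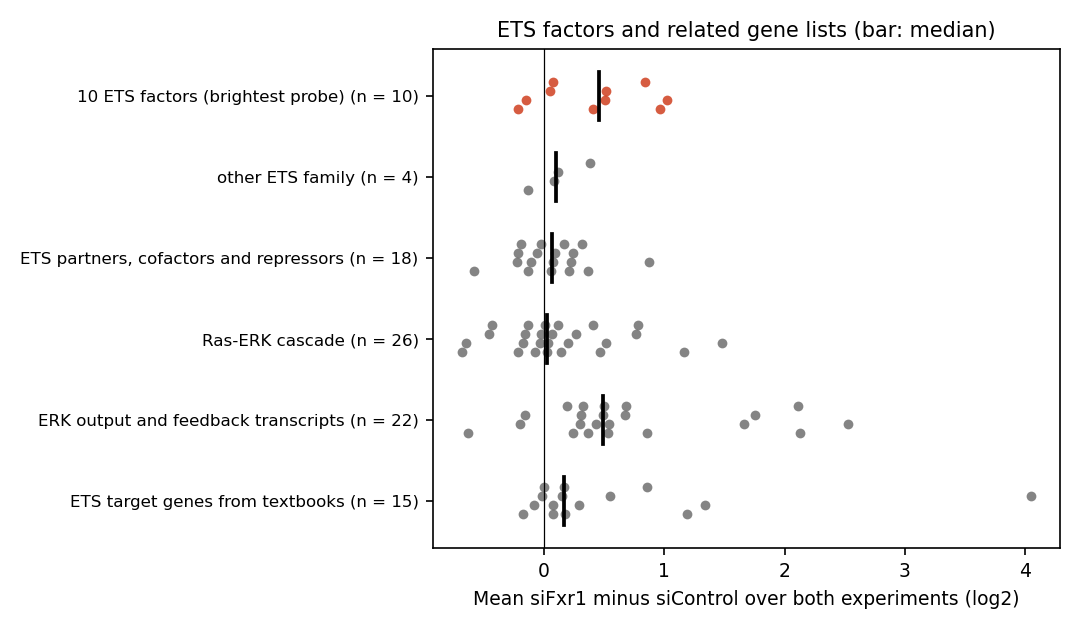
Mean log2 difference of siFxr1 from siControl over both experiments, 1 point per gene by its brightest probe, for the 10 ETS factors (red) and 5 related lists (grey), with the median of each list as a black bar and points spread vertically for legibility. The medians are 0.46 for the ETS factors and 0.50 for the ERK output transcripts, and between 0.03 and 0.16 for the other 4 lists.

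Promoter sequence was looked at for the 2 DNA motifs these factors are known to use, in windows of 250 bases before to 50 bases after each start site (RefSeq, GRCm38.p6). The ETS motif was searched as CCGGAAGT on both strands and the CArG box by its usual definition, and no stretch of letters can be a match to both at the same bases. Promoters were found for 8 of the 10 factors, 12 windows in all, without *Etv4* and *Ets1*. The ETS motif lay in 1 of these 12 windows, that of *Elk4*, beside 3.89% of all promoters. The CArG box lay in 0 of the 12, beside 1.63% of all promoters. Of the ERK output transcripts 15 genes had promoters, 19 windows in all, of which 0 held the ETS motif and 6 the CArG box, and these belonged to 3 genes, *Egr2*, *Srf* and *Dusp5*, beside 1.81% of all genes. Windows of *Egr2* from alternative start sites overlap. Matching stretches are shown with the motif in capitals, *Elk4* at chr1:132007541-132007570 on the plus strand, *Egr2* at chr10:67537787-67537816 on the plus strand, *Srf* at chr17:46556225-46556254 on the minus strand and *Dusp5* at chr19:53529053-53529082 on the plus strand.

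Elk4 (ETS motif): cggcccctcccCCGGAAGTgacgctcgcgc
Egr2 (CArG box): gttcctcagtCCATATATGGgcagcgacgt
Srf (CArG box): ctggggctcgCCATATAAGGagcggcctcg
Dusp5 (CArG box): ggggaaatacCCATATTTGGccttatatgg

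*Dusp5*, a nuclear ERK phosphatase picked for its promoter after its values were seen, was well above background on 3 of 4 arrays and read 5.15 and 7.40 in experiment 1 and 5.20 and 6.27 in experiment 2. A match of letters is a description of the window, and no match says nothing of binding elsewhere.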

How the data were processed

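RNA of C2C12 cells was measured on 4 Agilent 8x60K mouse arrays, grouped by condition and experiment from the labels. The authors deposited for each array the spot intensity of Agilent Feature Extraction 10.7.3.1, background-corrected and spatially detrended, together with a table of normalized intensity that ranks spots as the median signal does and has no background subtracted. In R 4.3.3 with limma 3.58.1, intensities of the 59305 non-control spots were taken to log2 and quantile-normalized, spots with an outlier mark (145 to 177 per array) were left out, and spots of a probe were averaged. lmFit and eBayes used the condition as sole term, over all 55681 probes, with Benjamini-Hochberg adjustment. A probe counted as well above background where at least 0.5 of its spots carried that mark, and the brightest probe stood for a gene. No spot was saturated. Signals of different probes are not comparable, and the precision is set by 2 arrays per condition. Quantile normalization removes shifts of the whole array.

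The 10 genes and the lists were chosen with earlier results of these data known. Every factor was named with all its probes, and *Fxr1*. From each list up to 4 genes were named, those with the largest absolute difference among genes above background on 4 arrays that moved the same way in both experiments. *Erf*, *Cic*, *Atxn1*, *Mknk2*, *Spry4*, *Mmp9*, *Dusp5* and *Cd34* fall outside this rule and were picked after their values were seen. Alternatives were 75th-percentile scaling, normexp background correction (offset 50), uncorrected signal, the authors' table, a filter on dim probes, the replicate block, 4 ratios taken as observations, a trended robust prior and leaving out each array. The pairing comes from the experiment numbers of the labels and the shared slide, and deviations of same-numbered arrays from their condition means correlated at 0.714. The fit was tested on simulated data. Symbols and promoters came from RefSeq, probe sequences and mm9 positions from the array files. Protein sequences were not used here.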

Additional observations from a re-analysis of the deposited data

How the results depend on the processing

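No probe of the 10 factors was called changed under any alternative. Direction held for *Etv1*, *Etv4*, *Etv5*, *Etv6*, *Ets2*, *Elk3* and *Elk4* under all alternatives run. *Ets1* turned to -0.046 with normexp, -0.060 without background correction and -0.061 in the authors' table, and *Elk1* to -0.093, -0.095 and -0.093, and to -0.069 by its other probe, an alternative chosen after seeing the data. Under these 3 settings the number of factors at least 1.5-fold apart in both experiments was 1 in place of 0 (*Etv6*), and the number higher in both experiments, also counted so after seeing the data, was 5 in place of 8. Probes called different between the experiments were 1 of the 19 without background correction and in the authors' table and 2 with the filter on dim probes, in place of 0. Neither the share of all genes nor the share of all probes was counted under these settings, so nothing particular to the factors can be read from these numbers. Detrending and subtraction of background both differ between these settings, and the cause was not tested.

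The replicate block alone changed no call: 0 of all probes passed. Together with the filter on dim probes the replicate block called 280 probes over the array and *Fxr1* (log2 difference -3.31, adjusted limma p 0.0173), and 4 ratios as observations, which reuse each array, called 1064 and *Fxr1* (-3.31, adjusted p 0.0257). The lowest adjusted p among the 19 probes was 0.171 and 0.108 in these fits.

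Leaving out 1 array at a time moved the median over the 10 factors between 0.25 and 0.38 (without siControl or without siFxr1 of experiment 2 it was 0.33 and 0.29, and without siControl of experiment 1 it was 0.25). Ranges were 0.66 to 1.38 for *Etv1*, 0.46 to 1.47 for *Etv4*, 0.34 to 1.33 for *Etv5*, 0.31 to 0.71 for *Etv6*, -0.16 to 0.32 for *Ets1*, 0.06 to 0.98 for *Ets2*, -0.21 to 0.31 for *Elk1*, -0.26 to -0.17 for *Elk3*, 0.22 to 0.60 for *Elk4* and -0.43 to 0.13 for *Gabpa*. The sign of *Ets1*, *Elk1* and *Gabpa* turned without siControl of experiment 1 and without siFxr1 of experiment 2. An array left alone in its condition was assumed to vary like the others.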
